A study of Mus musculus with 6 samples.

Results

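The comparison described here set 1 single-cell library of immune cells from SOX17KO colon tumours of mice against 1 such library from Control tumours, the pair of the series whose labels give no time. Cell barcodes with at least 200 detected genes and at most 10% mitochondrial UMIs (unique molecular identifiers, each a counted RNA molecule) were kept. This left 6382 SOX17KO and 6883 Control barcodes, together 13265 of the 34607 barcodes in the 6 libraries of the series. The last barcode kept on each threshold had 219 genes and 9.78% mitochondrial UMIs in SOX17KO and 231 genes and 9.95% in Control, and the first one outside had 64 genes and 10.1% in SOX17KO and 131 genes and 10.1% in Control. The tumours of 5 mice per condition had been pooled, so that each genotype is 1 pool and 1 library.

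Both groups share tissue, sort and chemistry. Digested colon tumours had been sorted for viable cells (7-AAD-negative) with the pan-leukocyte marker CD45 but without the epithelial marker EpCAM. The sorted cells had been sequenced with 10x Genomics 3' v3 chemistry, which counts RNA from its 3' end. The genotype is the only label that differs, SOX17KO against Control. How the Sox17 gene was removed, in which cells, and what the Control tumours carry are not given in the sources used here, nor are the mouse strain and age.

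SOX17 is an HMG-box transcription factor of the endoderm and of blood vessel endothelium, and the series asks what its loss in early colorectal tumours does to the immune cells inside them. CD8 T cells are the killers of tumour cells: they recognise peptides on MHC class I, release granzymes and perforin, and secrete interferon-gamma. Type I interferons act on nearly all cells and induce a shared set of antiviral genes, whereas AP-1 and other immediate early genes are switched on within minutes of receptor signals. Regulatory T cells, neutrophils and plasmacytoid dendritic cells can each restrain or shape such a response.

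The SOX17KO library held 29033605 UMIs in kept barcodes with a median of 3102 UMIs per barcode, against 45436607 UMIs and a median of 4189 in the Control library. Sox17 itself (chr1:4490931-4497354, GRCm38) gave 4 UMIs in the SOX17KO and 7 UMIs in the Control library, and 3 to 20 UMIs in the 4 timed libraries, so that in these sorted immune cells the gene cannot check the genotype. The 2 libraries shared 10 barcode sequences, within the 4 to 13 of the other 14 pairs of libraries. With 1 library a genotype there is no spread between replicates and no test. All 95% intervals, given in square brackets, cover counting error only, and no difference here can be told apart from one between pools, sorts or libraries.

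Cells were assigned by UMIs of marker genes to 20 gates, for example CD8 T for barcodes with at least 2 UMIs of the CD3 genes and at least 1 of Cd8a or Cd8b1, without Cd4 and Foxp3. The SOX17KO library was dominated by this gate. CD8 T cells were 44.3% [43.1, 45.5] of kept barcodes in SOX17KO (2827 cells), against 16.8% [15.9, 17.7] in Control (1157 cells), a log2 odds ratio of 1.98 [1.86, 2.09]. They made up 69.4% of all T-gated cells in SOX17KO and 31.6% in Control.

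Regulatory T cells and several innate gates took smaller shares in SOX17KO. Regulatory T cells, marked by the transcription factor Foxp3, were 0.376% of SOX17KO barcodes (24 cells) and 6.44% of Control barcodes (443 cells), a log2 odds ratio of -4.19 [-4.85, -3.59]. Neutrophils were 0.172% in SOX17KO (11 cells) and 4.79% in Control (330 cells), at -4.87 [-5.88, -4.01]. Plasmacytoid dendritic cells, the specialised makers of type I interferon, numbered 2 in SOX17KO and 182 in Control, at -6.44 [-9.49, -4.56]. Type 2 conventional dendritic cells were 0.392% in SOX17KO and 1.95% in Control, and mature regulatory dendritic cells 0.376% in SOX17KO and 1.22% in Control.

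The remaining gates differed in both directions. Fibroblasts, which a CD45 sort should leave out, numbered 70 in SOX17KO and 2 in Control, a log2 odds ratio of 5.25 [3.35, 8.33]. Conventional CD4 T cells were 5.88% of SOX17KO and 7.76% of Control barcodes, and gamma-delta T cells 2.35% of SOX17KO and 5.00% of Control barcodes. T cells with none of Cd4, Cd8a, Cd8b1, Foxp3 and Trdc, called double-negative here, were 7.58% in SOX17KO and 10.4% in Control. B cells were 4.28% in SOX17KO and 3.43% in Control. Macrophages numbered 79 in SOX17KO and 41 in Control, and plasma cells 34 in SOX17KO and 16 in Control. Barcodes with markers of 2 or more lineages, set aside as mixed, were 8.35% in SOX17KO and 7.93% in Control.

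**Figure D1:**
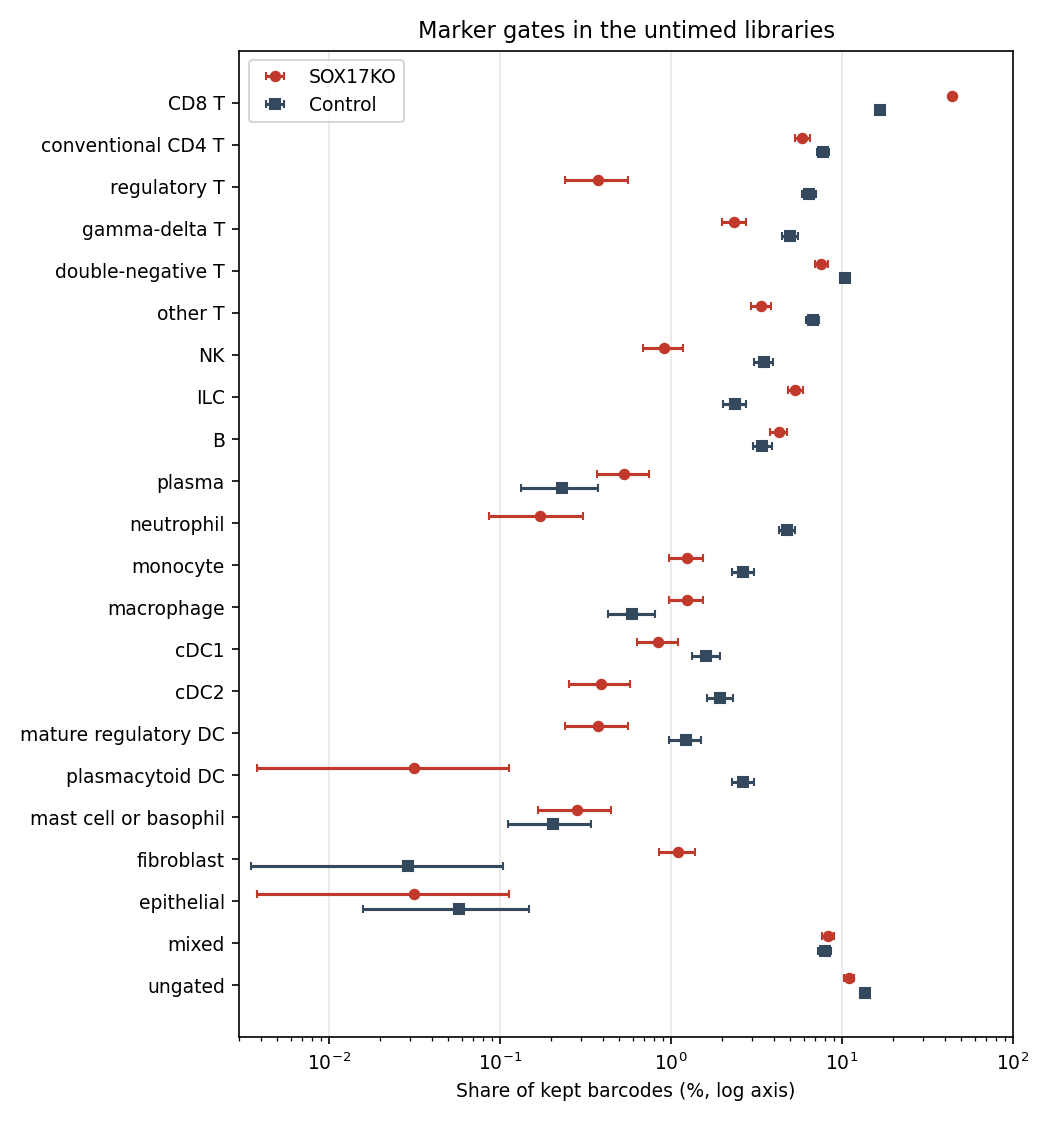
Share of kept barcodes in each marker gate (log axis) in the untimed SOX17KO library (red circles) and the untimed Control library (dark squares), with exact 95% binomial intervals. CD8 T cells stand at 44.3% in SOX17KO against 16.8% in Control, while regulatory T cells, neutrophils and plasmacytoid dendritic cells lie far to the left in SOX17KO.

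Depth differed between the libraries, and a gate needs UMIs to be met. The median CD8 T cell had 3284 UMIs in SOX17KO and 5406 UMIs in Control, and the median ungated barcode 1358 UMIs in SOX17KO and 824 UMIs in Control. With every barcode thinned to 1000 UMIs, the CD8 T gate held 15.9% of SOX17KO and 10.4% of Control barcodes, a log2 odds ratio of 0.70, and 46.0% and 40.9% of SOX17KO and Control barcodes met no gate.

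3 gates did not bear out their names in SOX17KO, and their genes are not compared below. In barcodes that met the natural killer rule, Themis, a T cell receptor signalling gene, was at 730 CPM (UMIs per 1e+06 UMIs of the gate) in SOX17KO and 17.4 CPM in Control, and the T cell surface receptor gene Cd6 at 316 CPM in SOX17KO and 3.88 CPM in Control. In barcodes that met the monocyte rule, Themis was at 749 CPM in SOX17KO and 24.4 CPM in Control. In barcodes that met the rule for innate lymphoid cells, the summed Cd8a and Cd8b1 level was 401 CPM in SOX17KO and 53.1 CPM in Control, and that of 4 fibroblast markers 1061 CPM in SOX17KO and 2.53 CPM in Control.

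UMIs summed over all kept barcodes depend on the cell shares, and in such sums fewer cells of a type and less RNA per cell cannot be told apart. Of 14321 genes with at least 50 UMIs over both libraries, 977 were at least 2-fold higher in SOX17KO, which is 6.82% of those measured, and 1470 were at least 2-fold lower, which is 10.3%. The median log2 ratio of SOX17KO over Control was -0.13.

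Macrophage and connective tissue genes led the higher side. Retnla (chr16:48842551-48844461), a secreted protein of alternatively activated macrophages, had 8238 UMIs in SOX17KO and 0 in Control, at least 4297-fold higher when Control is set at 3 counts. Its UMIs came from 147 SOX17KO barcodes. Barcodes of mixed lineage held 5452 of these UMIs and the macrophage gate 2029. The lysozyme gene Lyz1 was at 71.0 CPM in SOX17KO and 1.36 CPM in Control, and the chemokine gene Pf4 at 59.6 CPM in SOX17KO and 1.61 CPM in Control. The complement genes C1qa, C1qb and C1qc, made by tissue macrophages, had log2 ratios of 3.57, 2.95 and 3.48. The share of the macrophage gate had a smaller log2 odds ratio, 1.06 [0.50, 1.65]. Dcn, a matrix proteoglycan of fibroblasts, was at 299 CPM in SOX17KO and 11.8 CPM in Control, and the collagen genes Col1a1, Col1a2 and Col3a1 had log2 ratios of 2.68, 3.06 and 2.93, with 52.2%, 52.7% and 86.3% of their Control UMIs in 1 barcode. Lmna and Tnfsf11, also on this side, are described with the CD8 T cells.

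Genes of the cell types with low shares led the lower side. Siglech, a receptor of plasmacytoid dendritic cells, was at 1.10 CPM in SOX17KO and 92.2 CPM in Control. The neutrophil gene G0s2 was at 3.24 CPM in SOX17KO and 233 CPM in Control, and S100a9 at 19.6 CPM in SOX17KO and 311 CPM in Control. In all, 17 of 18 measured neutrophil genes were at least 2-fold lower. Acod1, which makes itaconate, had a log2 ratio of -3.90, the matrix protein gene Thbs1 one of -3.78 and Ifitm6 one of -3.82. Ccr9, the gut-homing chemokine receptor, was at 2.96 CPM in SOX17KO and 84.5 CPM in Control. Itgb8, an integrin chain that activates TGF-beta and is typical of regulatory T cells, was at 9.13 CPM in SOX17KO and 134 CPM in Control. Ifitm1, an interferon-induced membrane gene, had a log2 ratio of -4.08. The other 3 on this side, Galnt18, Tff1 and Atp2b2, belonged to T cells and are described below.

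Within the CD8 T gate the RNA of the 2 genotypes differed widely. Of 10654 genes measured, 526 were at least 2-fold higher in SOX17KO, 4.94% of those measured, and 1001 at least 2-fold lower, 9.4%. The median gene was at -0.13, and scaling with edgeR's TMM factors or with median-of-ratios factors moved every log2 ratio up by 0.15 or 0.17. Those scalings gave 696 higher and 793 lower genes (TMM) and 724 higher and 762 lower genes (median of ratios). The gate sums held 11359444 UMIs in SOX17KO and 7645057 UMIs in Control.

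Among the 12 genes furthest to the higher side, several encode surface or signalling proteins of activated T cells. Lmna (chr3:88480147-88509956), which encodes lamins A and C of the nuclear envelope, was at 207 CPM in SOX17KO and 7.98 CPM in Control, a log2 ratio of 4.69 [4.33, 5.09]. Ramp3, a partner chain of receptors for calcitonin gene-related peptide and adrenomedullin, was at 327 CPM in SOX17KO and 18.6 CPM in Control, at 4.14 [3.90, 4.39]. Cd40lg, the ligand with which T cells activate B cells and dendritic cells, was at 59.95 CPM in SOX17KO and 3.14 CPM in Control. Tnfsf11, the cytokine RANKL, was at 522 CPM in SOX17KO and 65.8 CPM in Control, at 2.99 [2.86, 3.12].

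The others of these 12 were mostly nuclear regulators. Igf1r, the receptor for insulin-like growth factor, was at 265 CPM in SOX17KO and 32.8 CPM in Control. The histone demethylase gene Kdm6b was at 782 CPM in SOX17KO and 113 CPM in Control. The immediate early gene Nr4a1, a nuclear receptor induced by T cell receptor signals, was at 771 CPM in SOX17KO and 116 CPM in Control, and the AP-1 subunit gene Fosb at 470 CPM in SOX17KO and 66.2 CPM in Control. Gadd45b, a stress-response regulator, the transcription factor gene Klf4, the actin-binding nebulette gene Nebl and the kinase gene Pak1 had log2 ratios of 2.79, 3.33, 3.15 and 2.94. Lmna had a UMI in 944 of 2827 SOX17KO cells, and 74.7% of those also had Fosb, against 51.4% of the 1883 cells without Lmna. The medians were 3892 and 3056 UMIs, so these shares are not at equal depth. Other genes of the 12 differed less: Ramp3 was found in 52.5% of the cells with Lmna and 45.9% of those without. Igf1r was found in 43.0% of the cells with Lmna and 44.1% of those without. In SOX17KO, at most 3.38% of the UMIs of any of the 12 were in 1 barcode.

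The 12 genes furthest to the lower side had between 0 and 14.3 CPM in SOX17KO. Galnt18 (chr7:111471661-111779977), of the family of enzymes that start O-glycosylation, had 2 UMIs or 0.176 CPM in SOX17KO and 146 CPM in Control, a log2 ratio of -9.69 [-12.7, -7.84]. The unnamed gene D430041D05Rik had 0 UMIs in SOX17KO and 53.1 CPM in Control, at least 201-fold lower with SOX17KO set at 3 counts. Spp1, the secreted protein osteopontin, was at 0.440 CPM in SOX17KO and 88.6 CPM in Control. Nrgn, the calmodulin-binding neurogranin, was at 2.11 CPM in SOX17KO and 148 CPM in Control, and Tff1, a trefoil peptide, at 2.02 CPM in SOX17KO and 81.4 CPM in Control. The transcription factor gene Glis1, the predicted gene Gm156, the calcium pump gene Atp2b2, the nebulin gene Neb and the unconventional myosin gene Myo10 had log2 ratios of -6.86, -6.67, -6.46, -4.94 and -4.21. Ccl1, a chemokine for CCR8, was at 14.3 CPM in SOX17KO and 350 CPM in Control, and the granzyme gene Gzma at 8.19 CPM in SOX17KO and 203 CPM in Control.

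Several of these genes sat in the same Control cells. Galnt18 had a UMI in 149 of 1157 Control CD8 T cells, against 2 of 2827 in SOX17KO. Of those 149 cells, 76.5% also had Myo10, 65.8% Atp2b2, 50.3% Glis1 and 45.6% Spp1, against 17.6%, 17.6%, 6.75% and 7.34% of the 1008 Control CD8 T cells without Galnt18. The cells with Galnt18 were deeper, with a median of 8043 UMIs against 5143 UMIs in those without, so the shares are not at equal depth. The pattern was not shared by all: Ccl1 was found in 11.4% of the cells with Galnt18 and 15.3% of those without.

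**Figure D2:**
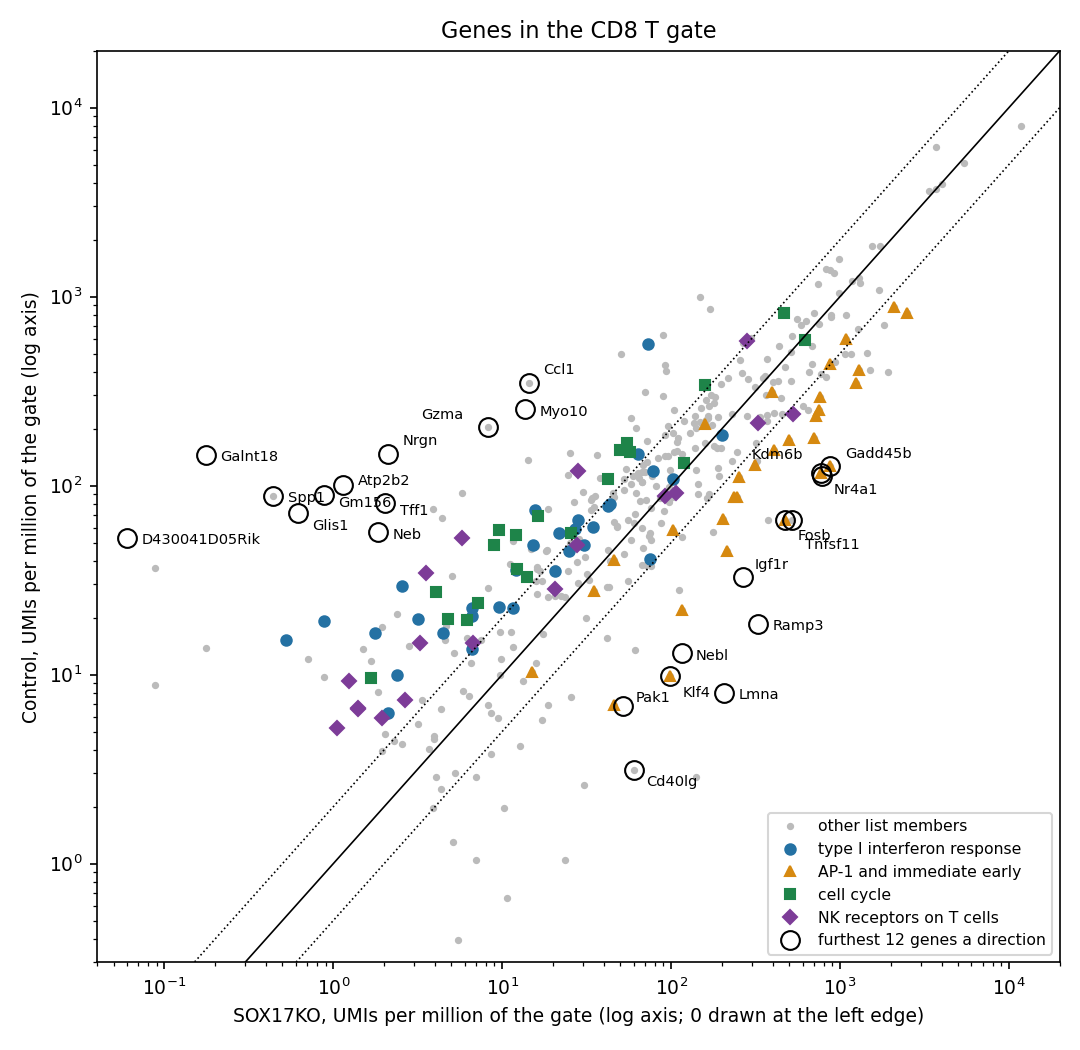
Level of list genes and of the 12 furthest genes a direction in the CD8 T gate, in CPM of the gate, in SOX17KO (horizontal, log axis) and Control (vertical, log axis); the solid line marks equal levels, the dotted lines a 2-fold difference, and open rings the 24 furthest genes. Orange AP-1 and immediate early genes lie below the line, from Klf4 at 98.7 and 9.81 CPM to Tnfaip3 at 2505 and 821 CPM, whereas most blue interferon, green cell cycle and purple NK receptor genes lie above it.

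Most immediate early genes were higher in SOX17KO CD8 T cells. Of 30 measured, 22 were at least 2-fold higher and none at least 2-fold lower, against 4.94% and 9.4% of all genes. The median log2 ratio was 1.51, against -0.13 over all genes. Tnfaip3, an inhibitor of NF-kappaB, was at 2505 CPM in SOX17KO and 821 CPM in Control, and Nfkbia, which encodes the inhibitor IkappaB-alpha, at 1248 CPM in SOX17KO and 350 CPM in Control. The AP-1 subunit gene Junb was at 2086 CPM in SOX17KO and 885 CPM in Control, with its relative Jund at 1084 CPM in SOX17KO and 600 CPM in Control, short of 2-fold. Of 14 chaperone genes measured none was at least 2-fold higher and 4 were at least 2-fold lower, among them Hspa1a at 36.4 CPM in SOX17KO and 146 CPM in Control. None of the 10 mitochondrial and nuclear RNAs that follow RNA quality passed 2-fold, with Malat1 at 11773 CPM in SOX17KO and 8037 CPM in Control. Whether handling before the sort plays a part was not tested.

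Cytokine genes of T cells split in both directions. Of 16 measured, 7 were at least 2-fold higher in SOX17KO and 4 at least 2-fold lower, with a median log2 ratio of -0.48. The shares of all genes in the gate were 4.94% higher and 9.4% lower. Ifng, which encodes interferon-gamma, was at 647 CPM in SOX17KO and 250 CPM in Control, and Tnf at 111 CPM in SOX17KO and 28.1 CPM in Control. Several chemokine genes went the other way: Ccl3, an attractant of inflammatory cells, was at 50.6 CPM in SOX17KO and 494 CPM in Control, and Xcl1, an attractant of type 1 dendritic cells, at 70.2 CPM in SOX17KO and 313 CPM in Control. Ccl5 and Ccl4 were at 3698 CPM and 989 CPM in SOX17KO and at 6211 CPM and 1578 CPM in Control, short of 2-fold.

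Killing genes were mostly lower in SOX17KO. Of 14 cytotoxic genes measured 7 were at least 2-fold lower and 1 higher, against 9.4% and 4.94% of all genes in the gate. The median log2 ratio was -1.01. Gzmb was at 89.9 CPM in SOX17KO and 624 CPM in Control, Gzmk at 30.1 CPM in SOX17KO and 92.7 CPM in Control, and the perforin gene Prf1 at 89.0 CPM in SOX17KO and 298 CPM in Control. Fasl, the death ligand, was the 1 higher member, at 324 CPM in SOX17KO and 135 CPM in Control. Nkg7, a granule gene, was at 828 CPM in SOX17KO and 1398 CPM in Control, short of 2-fold.

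Genes of inhibitory receptors and of the exhausted state did not move as 1 group. Of 18 measured, 3 were at least 2-fold higher and 8 at least 2-fold lower, against 4.94% and 9.4% of all genes in the gate. The median log2 ratio was -0.77. Tox, the transcription factor that fixes the exhausted state, was at 149 CPM in SOX17KO and 997 CPM in Control, a log2 ratio of -2.75 [-2.82, -2.67]. Lag3, an inhibitory receptor for MHC class II, was at 5.81 CPM in SOX17KO and 92.0 CPM in Control, and Entpd1, the ectonucleotidase CD39, at 62.0 CPM in SOX17KO and 202 CPM in Control. Pdcd1, which encodes PD-1, was at 287 CPM in SOX17KO and 364 CPM in Control. Lag3 and Pdcd1 are named here after their values were seen. The 3 higher members were Nr4a1, Nr4a3 at 1497 CPM in SOX17KO and 408 CPM in Control, and Bhlhe40 at 1157 CPM in SOX17KO and 500 CPM in Control, all transcription factors.

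Receptors and regulators of T cell state also differed gene by gene. Counts of them stand against 4.94% of all genes in the gate at least 2-fold higher and 9.4% lower. NK receptors on T cells were lower in 12 of 18 measured genes by at least 2-fold and higher in 1, with a median log2 ratio of -1.54. Klra7, of the Ly49 family, was at 3.52 CPM in SOX17KO and 34.7 CPM in Control, while the activating receptor gene Klrk1 was at 527 CPM in SOX17KO and 239 CPM in Control. Of 16 genes of naive, memory and recirculating cells, 9 were at least 2-fold lower and 1 was higher. The higher one, the chromatin organiser gene Satb1, was at 1437 CPM in SOX17KO and 505 CPM in Control. Of 17 residency genes 2 were higher and 3 lower, with a median log2 ratio of 0.01. The activation and retention gene Cd69 was at 407 CPM in SOX17KO and 154 CPM in Control, and the epithelium-binding integrin gene Itgae at 45.1 CPM in SOX17KO and 90.9 CPM in Control.

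Among T cell transcription factors, 4 of 19 were at least 2-fold higher and 2 lower, against 4.94% and 9.4% of all genes in the gate. The lower share lay near that of all genes. Rora was at 1927 CPM in SOX17KO and 399 CPM in Control, Stat4, which carries interleukin-12 signals, at 1810 CPM in SOX17KO and 711 CPM in Control, and Ikzf2, the Helios factor, at 171 CPM in SOX17KO and 861 CPM in Control. Of 10 costimulatory receptor genes 2 were higher and 4 lower. Icos and Cd28 were at 824 CPM and 603 CPM in SOX17KO and at 376 CPM and 264 CPM in Control, whereas Tnfrsf9, the receptor 4-1BB, was at 266 CPM in SOX17KO and 570 CPM in Control.

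Several of these genes were also compared at equal depth, with each CD8 T cell thinned to 1000 UMIs. 20 SOX17KO and 50 Control cells were shallower and were left out. Tox had a UMI in 9.69% [8.62, 10.8] of SOX17KO and 48.4% [45.4, 51.4] of Control cells (22.9% and 76.5% before thinning). Gzmb had one in 6.98% of SOX17KO and 31.2% of Control cells (16.1% and 53.2% before thinning). Rora had one in 77.6% [76.0, 79.2] of SOX17KO and 26.4% [23.8, 29.1] of Control cells, Ifng in 33.6% of SOX17KO and 16.2% of Control cells, and Lmna in 14.5% of SOX17KO and 0.813% of Control cells. B cells, which should lack the T cell genes, had Tox in 1.11% of SOX17KO and 1.78% of Control cells after thinning, and Ifng in 1.11% of SOX17KO and 0 of 225 Control cells. The B gate had Lmna in 4.07% of SOX17KO cells, above the Control CD8 T share, and for Lmna, Fosb and Nr4a1, which B cells had too, the B gate gives no background level.

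**Figure D3:**
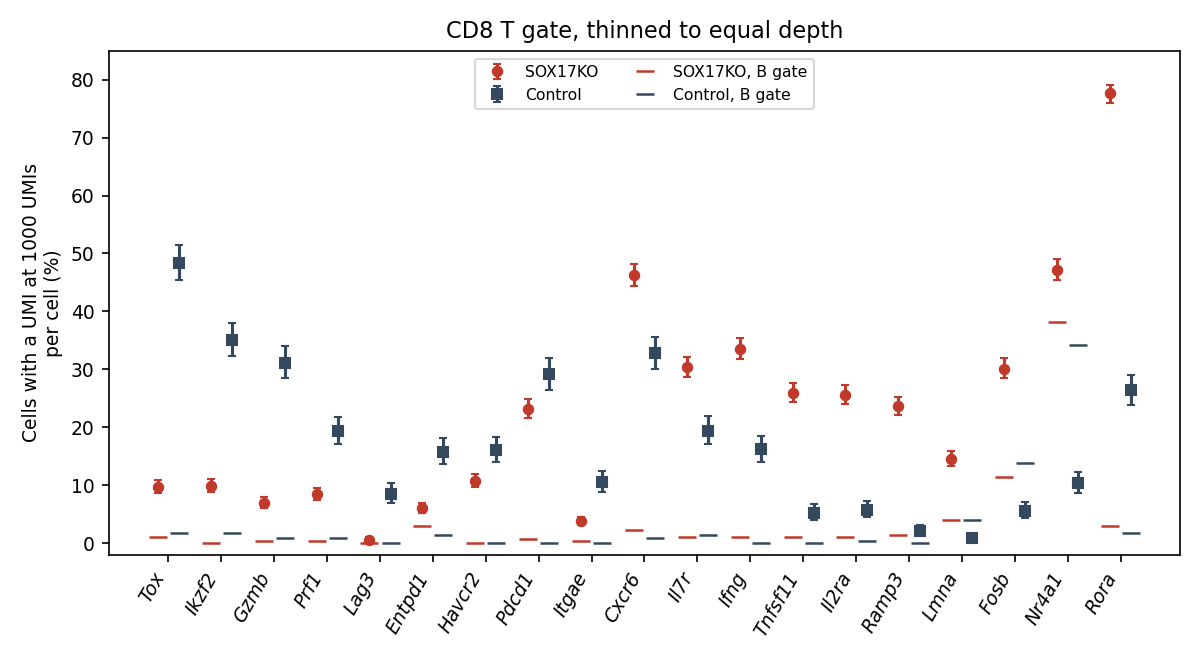
Share of CD8 T cells with at least 1 UMI of a gene after thinning each cell to 1000 UMIs, in SOX17KO (red circles) and Control (dark squares), with exact 95% binomial intervals; short dashes give the share in the B gate of the same library. Tox, Ikzf2, Gzmb and Prf1 were found in fewer SOX17KO than Control cells, and Ifng, Tnfsf11, Il2ra, Ramp3 and Rora in more.

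A smaller share of SOX17KO than of Control CD8 T cells carried cell cycle RNA. Of 20 cell cycle genes measured in the gate 17 were at least 2-fold lower, against 9.4% of all genes in it. None was at least 2-fold higher, and the median log2 ratio was -1.63. Mki67, the proliferation antigen Ki-67, was at 49.6 CPM in SOX17KO and 154 CPM in Control, and the topoisomerase gene Top2a at 57.1 CPM in SOX17KO and 150 CPM in Control. The size of the gap in cell shares depended on the genes used. Cells with at least 2 UMIs of the 20 genes were 86.5% [85.2, 87.7] of SOX17KO and 90.7% [88.8, 92.3] of Control CD8 T cells. By 11 of these genes, chosen after seeing the data, such cells were 5.24% [4.44, 6.12] of SOX17KO and 18.6% [16.4, 20.9] of Control CD8 T cells. After thinning, the 11 genes gave 1.46% of SOX17KO and 6.87% of Control cells.

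Receptor chain genes were compared in the same gate, whose cells had medians of 3284 UMIs in SOX17KO and 5406 UMIs in Control. Trbc1, 1 of the 2 constant regions of the T cell receptor beta chain, had a UMI in 39.4% [37.6, 41.2] of SOX17KO and 57.6% [54.7, 60.4] of Control CD8 T cells, while Trbc2 had one in 81.2% of SOX17KO and 86.2% of Control cells. Tcrg-C2, a constant region of the gamma chain of gamma-delta T cells, had one in 3.61% of SOX17KO and 22.04% of Control cells of the gate, and the gamma segment Trgv2 in 3.08% of SOX17KO and 10.7% of Control cells. With each cell thinned to 1000 UMIs, Trbc1 had a UMI in 18.7% [17.3, 20.2] of SOX17KO and 32.7% [29.9, 35.6] of Control cells, and Tcrg-C2 in 0.926% [0.606, 1.35] of SOX17KO and 4.25% [3.14, 5.61] of Control cells. The intervals overlapped for Trbc2, at 47.1% [45.2, 49.0] of SOX17KO and 48.5% [45.5, 51.5] of Control cells, and for Trgv2, at 0.570% [0.326, 0.924] of SOX17KO and 0.994% [0.497, 1.77] of Control cells. The rule of the gate had taken out cells with Trdc only where they had no UMI of Cd8b1. Cells with both stayed in it. Trbc1 and Trbc2 are near-identical, so reads between them may have been split or dropped.

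Conventional CD4 T cells shared part of these differences. Of 7492 genes measured there, 196 were at least 2-fold higher in SOX17KO, 2.62% of those measured, and 427 lower, 5.7%. Of 29 immediate early genes 13 were at least 2-fold higher and 1 lower, with a median log2 ratio of 0.98 against -0.06 over all genes. Fosb was at 496 CPM in SOX17KO and 73.5 CPM in Control, Tnfsf11 at 930 CPM in SOX17KO and 288 CPM in Control, and Cd40lg at 447 CPM in SOX17KO and 115 CPM in Control. None of 12 cell cycle genes measured passed 2-fold, with a median of 0.20.

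Genes typical of regulatory T cells were lower in the CD4 gate, although its rule required Foxp3 to be at 0. Of 25 such genes 9 were at least 2-fold lower and none higher, with a median log2 ratio of -0.85. Ikzf2 was at 327 CPM in SOX17KO and 1478 CPM in Control, the plakophilin gene Pkp4 at 101 CPM in SOX17KO and 385 CPM in Control, and Itgb8 at 28.1 CPM in SOX17KO and 159 CPM in Control. In the whole libraries Foxp3 had 139 UMIs in SOX17KO and 2252 UMIs in Control, and regulatory T cells in which its RNA was missed would fall into this gate; their part in the result was not tested.

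The furthest genes of the CD4 gate on the lower side were Tff1, with 1 UMI or 0.760 CPM in SOX17KO and 109 CPM in Control, Penk, the precursor of the enkephalin opioid peptides, at 19.8 CPM in SOX17KO and 523 CPM in Control, Frmd5 at 3.80 CPM in SOX17KO and 161 CPM in Control, the cell adhesion gene Dscam at 2.28 CPM in SOX17KO and 95.7 CPM in Control, and Brinp3 with 0 UMIs in SOX17KO and 58.2 CPM in Control, 43.6% of it in 1 barcode. Itgae was at 6.84 CPM in SOX17KO and 70.3 CPM in Control, with a UMI in 6 of 375 SOX17KO and 83 of 534 Control cells. Of the 5 furthest genes on the higher side, 4 had most of their SOX17KO UMIs in 1 barcode. Of the SOX17KO UMIs, 1 barcode held 67.9% for Selp, 91.3% for Plpp3, 76.2% for the type 2 cytokine gene Il4, 86.5% for Slpi and 46.9% for Emp1. Without its top barcode in each library, Emp1 had a log2 ratio of 2.70.

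Gamma-delta and double-negative T cells repeated some of these genes. Of 5332 genes measured in gamma-delta T cells, 116 were at least 2-fold higher (2.18%) and 172 lower (3.23%). Dscam was at 14.5 CPM in SOX17KO and 132 CPM in Control, and Tnfsf11 at 242 CPM in SOX17KO and 37.5 CPM in Control. Il17a, the hallmark cytokine of gut gamma-delta T cells, was at 447 CPM in SOX17KO and 1426 CPM in Control. Of 8 cell cycle genes measured there 4 were higher and none lower, such as Stmn1 at 129 CPM in SOX17KO and 14.1 CPM in Control, with 35.2% of its SOX17KO UMIs in 1 barcode. Of 7519 genes measured in double-negative T cells, 231 were at least 2-fold higher (3.07%) and 385 lower (5.12%). Lmna was at 318 CPM in SOX17KO and 38.2 CPM in Control there, Tnfsf11 at 568 CPM in SOX17KO and 75.6 CPM in Control, and Penk at 6.29 CPM in SOX17KO and 94.7 CPM in Control. Sorcs2 and Ifngas1 had log2 ratios of -3.67 and -3.23, and Frmd5, with 1 UMI in SOX17KO, one of -6.99 [-12.3, -4.49].

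Genes induced by type I interferon had a median below that of all genes in 6 gates. These were the gates named for a single cell type that held at least 50 cells in both libraries and carried the markers of their names. In the CD8 T gate 20 of 31 measured were at least 2-fold lower and none was at least 2-fold higher, with a median log2 ratio of -1.27 against -0.13 over all genes. In conventional CD4 T cells the count was 18 of 24 (median -1.39), in gamma-delta T cells 7 of 15 (-0.77), in double-negative T cells 20 of 28 (-1.52), in B cells 7 of 12 (-1.27) and in type 1 conventional dendritic cells (cDC1) 19 of 21 (-2.64), with none at least 2-fold higher. The share of all measured genes at least 2-fold lower was 1.82% in B cells and 8.61% in cDC1.

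Single members show the size of the difference. Ifi27l2a, an interferon-induced gene, was at 73.1 CPM in SOX17KO and 560 CPM in Control in CD8 T cells, at 176 CPM in SOX17KO and 827 CPM in Control in CD4 T cells, and at 55.0 CPM in SOX17KO and 243 CPM in Control in B cells. Trim30a, a ubiquitin ligase gene, had log2 ratios of -1.20 in CD8 T, -1.40 in CD4 T, -1.79 in gamma-delta T, -1.24 in double-negative T, -1.23 in B and -1.87 in cDC1 cells. Isg20, an RNA exonuclease gene, was at 15.6 CPM in SOX17KO and 73.9 CPM in Control in CD8 T cells, and the nucleic acid sensor gene Zbp1 at 28.2 CPM in SOX17KO and 65.9 CPM in Control. Ly6a and Samd9l, with log2 ratios of 0.09 and -0.08, lay close to equal levels in that gate.

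Isg15, a ubiquitin-like protein and a standard interferon marker, went against most of its list in CD8 T cells. It was at 74.7 CPM in SOX17KO and 40.9 CPM in Control there. A UMI of Isg15 was found in 13.3% of SOX17KO and 17.2% of Control conventional CD4 T cells. For gamma-delta T cells these shares were 10.7% in SOX17KO and 9.59% in Control. For double-negative T cells they were 11.6% in SOX17KO and 12.3% in Control, none of them at equal depth. In cDC1, Isg15 had 1 UMI or 3.04 CPM in SOX17KO and 194 CPM in Control, with an interval of the log2 ratio of -11.3 to -3.50. In macrophages it was at 20.6 CPM in SOX17KO and 418 CPM in Control. It is named here after its values were seen.

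Of the 3284 genes measured in all 6 gates, 4 were at least 2-fold lower in each: Trim30a, Ifi27l2a, the antiviral kinase gene Eif2ak2, and Cmss1, with 550 CPM in SOX17KO and 1722 CPM in Control in CD8 T cells. The first 3 are type I interferon genes. Those at least 2-fold higher in each were Rps27rt, a near-identical copy of the ribosomal gene Rps27 whose reads may be shared with it, and Ighg1. The abundant non-coding RNA Gm42418 was lower too, short of 2-fold. It was at 30566 CPM in SOX17KO and 52904 CPM in Control in CD8 T cells. In conventional CD4 T cells it was at 30883 CPM in SOX17KO and 56503 CPM in Control. Whether a difference between the libraries plays a part in Cmss1 and Gm42418 was not tested.

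**Figure D4:**
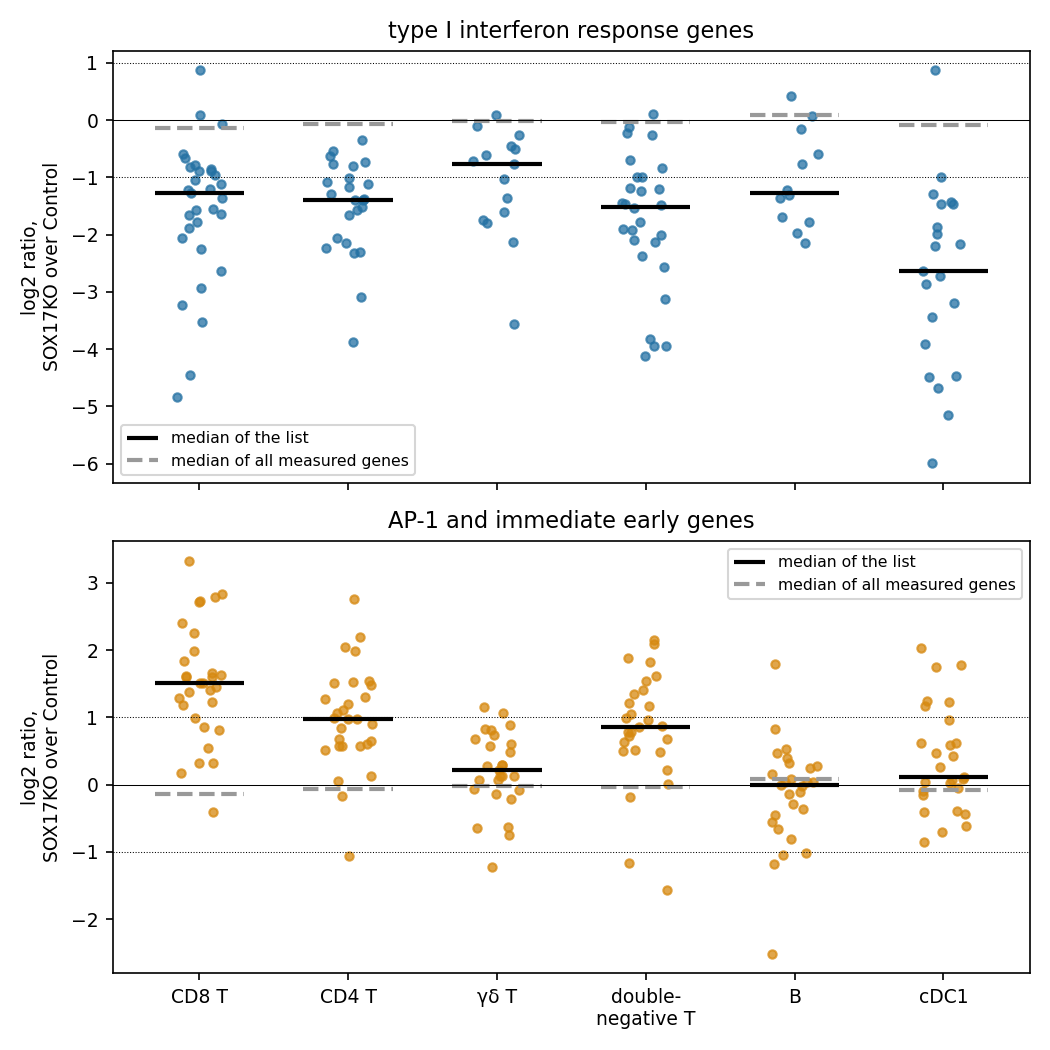
Log2 ratio of SOX17KO over Control for each measured member (points) of the type I interferon list (top) and of the AP-1 and immediate early list (bottom) in 6 marker gates; black bars are list medians and dashed grey bars the medians of all measured genes. Interferon medians lie between -2.64 and -0.77 in the 6 gates, while immediate early medians range from 1.51 in CD8 T cells to -0.005 in B cells.

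The promoters of this list share a sequence feature that the choice of genes did not use. Copies of the letters GAAA separated by any 2 bases, the core of the element bound by interferon response factors, were searched on both strands from 250 bases before to 50 bases after each gene's start in the RefSeq promoters of GRCm38.p6. Such pairs occur in 1131 of 32851 promoters, or 3.44%. Counted by gene they occur for 19 of 31 list genes with a promoter in that table (61.3%), against 3.99% of all genes. Among the list genes at least 2-fold lower in CD8 T cells they occur for 12 of 15. The list was built from known interferon targets, and a match is a description of the sequence, not a binding site. The 6 promoters below belong to lower members with a match, the most abundant among those on the chromosomes permitted for printing. They are printed 5′ to 3′ along the gene, with the matches in capitals.

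Trim30a (chr7:104465144-104465443, minus strand): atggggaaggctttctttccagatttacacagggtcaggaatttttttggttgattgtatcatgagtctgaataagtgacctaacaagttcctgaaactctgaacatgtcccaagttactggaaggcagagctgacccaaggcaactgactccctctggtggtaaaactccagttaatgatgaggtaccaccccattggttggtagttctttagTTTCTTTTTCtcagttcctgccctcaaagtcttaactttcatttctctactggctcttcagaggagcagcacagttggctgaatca
Phf11b (chr14:59341281-59341580, minus strand): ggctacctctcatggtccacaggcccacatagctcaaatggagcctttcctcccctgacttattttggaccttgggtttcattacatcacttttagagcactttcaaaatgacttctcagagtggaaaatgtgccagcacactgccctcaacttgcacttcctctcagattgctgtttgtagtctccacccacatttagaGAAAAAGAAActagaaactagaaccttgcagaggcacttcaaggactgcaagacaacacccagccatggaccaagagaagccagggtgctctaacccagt
Ifi213 (chr1:173599223-173599522, minus strand): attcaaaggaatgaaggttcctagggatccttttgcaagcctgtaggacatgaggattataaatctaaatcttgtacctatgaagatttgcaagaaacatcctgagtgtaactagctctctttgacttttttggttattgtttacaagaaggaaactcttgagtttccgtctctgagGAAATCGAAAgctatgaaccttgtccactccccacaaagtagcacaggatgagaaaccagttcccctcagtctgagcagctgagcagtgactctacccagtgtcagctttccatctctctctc
Eif2ak2 (chr17:78882523-78882822, minus strand): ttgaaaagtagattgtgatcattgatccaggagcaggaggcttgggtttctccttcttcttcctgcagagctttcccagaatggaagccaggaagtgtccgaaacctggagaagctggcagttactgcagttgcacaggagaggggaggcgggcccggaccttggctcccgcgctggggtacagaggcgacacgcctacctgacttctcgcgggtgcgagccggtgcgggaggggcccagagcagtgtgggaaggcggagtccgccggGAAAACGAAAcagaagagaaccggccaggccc
Ifitm3 (chr7:141010695-141010994, minus strand): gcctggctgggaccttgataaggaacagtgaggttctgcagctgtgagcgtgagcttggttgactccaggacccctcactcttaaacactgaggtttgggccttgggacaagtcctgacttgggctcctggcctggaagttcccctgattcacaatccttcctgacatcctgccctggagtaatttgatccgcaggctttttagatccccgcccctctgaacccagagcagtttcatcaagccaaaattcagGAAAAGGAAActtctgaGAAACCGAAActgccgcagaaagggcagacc
Ifih1 (chr2:62646206-62646505, minus strand): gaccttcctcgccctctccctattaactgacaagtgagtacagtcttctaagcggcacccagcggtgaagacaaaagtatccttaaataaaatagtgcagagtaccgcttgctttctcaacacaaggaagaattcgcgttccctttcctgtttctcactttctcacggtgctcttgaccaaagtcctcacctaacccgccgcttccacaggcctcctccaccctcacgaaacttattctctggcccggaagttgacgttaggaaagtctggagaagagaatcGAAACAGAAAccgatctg

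The match lies 36 bases before the start of Trim30a, where it reads on the opposite strand, 50 before that of Phf11b and 73 before that of Ifi213. It lies 18 bases after the start of Eif2ak2 and 32 after that of Ifih1, and Ifitm3 has 2 matches, the first 2 bases after the start. In CD8 T cells Phf11b was at 26.9 CPM in SOX17KO and 58.7 CPM in Control, Ifi213 at 21.8 CPM in SOX17KO and 55.9 CPM in Control, Eif2ak2 at 15.2 CPM in SOX17KO and 48.3 CPM in Control, Ifitm3 at 9.51 CPM in SOX17KO and 22.9 CPM in Control, and the RNA sensor gene Ifih1 at 6.60 CPM in SOX17KO and 22.6 CPM in Control.

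Genes of the interferon-gamma response and of MHC class I differed less. In CD8 T cells 3 of 25 interferon-gamma response genes were at least 2-fold lower and none higher, with a median log2 ratio of -0.25. The share of all genes lower in that gate was 9.4%. Irf8, a transcription factor, was at 14.3 CPM in SOX17KO and 137 CPM in Control, and the receptor gene Ifngr1 at 1086 CPM in SOX17KO and 799 CPM in Control. In conventional CD4 T cells 11 of 24 were lower, against 5.7% of all genes there. Of 20 MHC class I genes in CD8 T cells 5 were at least 2-fold lower: the immunoproteasome genes Psmb8 (271 CPM in SOX17KO, 585 CPM in Control), Psmb9 and Psmb10, the activator gene Psme2 and the non-classical H2-T23. The class I heavy chain gene H2-K1 was at 1729 CPM in SOX17KO and 1853 CPM in Control. None of the 16 constitutive proteasome genes passed 2-fold, though their median log2 ratio was -0.70.

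In type 1 conventional dendritic cells, which present tumour antigen to CD8 T cells, 201 of 4323 measured genes were at least 2-fold higher (4.65%) and 372 lower (8.61%). Ifitm3 was at 78.9 CPM in SOX17KO and 2022 CPM in Control, a log2 ratio of -4.68 [-5.30, -4.12], with Ifitm1 at 15.2 CPM in SOX17KO and 765 CPM in Control and Ifitm6, with 2 UMIs in SOX17KO, at 6.07 CPM in SOX17KO and 261 CPM in Control, a log2 ratio of -5.43 [-8.48, -3.56]. Plac8 and Plet1, the second with 3 UMIs in SOX17KO, had log2 ratios of -4.06 and -5.42 [-7.70, -3.86]. Il1b, the inflammatory cytokine interleukin-1 beta, was at 501 CPM in SOX17KO and 2028 CPM in Control. Lmna was at 422 CPM in SOX17KO and 20.1 CPM in Control and the cell adhesion gene Cadm1, a known cDC1 gene, at 965 CPM in SOX17KO and 91.4 CPM in Control. The gate held 54 SOX17KO and 111 Control cells, and its rule asked for only 1 UMI of Xcr1 or Clec9a. Xcr1 was at 149 CPM in SOX17KO and 108 CPM in Control. The MHC class II gene H2-Aa had a UMI in 94.4% of SOX17KO and 82.9% of Control cells of the gate. Markers of T cells were at 78.9 CPM in SOX17KO and 29.2 CPM in Control there, and Themis at 131 CPM in SOX17KO and 8.22 CPM in Control. Markers of neutrophils, which also carry much Il1b, summed to 0 CPM in SOX17KO and 95.9 CPM in Control, with 0 of them detected in SOX17KO and 5 in Control. The part in the result of these cells, and of any other myeloid cells that met the rule, was not tested.

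Immediate early genes of B cells lay on both sides. Of 4661 genes measured in B cells 66 were at least 2-fold higher (1.42%) and 85 lower (1.82%). Of 27 immediate early genes 1, Fosl2, was at least 2-fold higher and 4 were lower, among them Egr1 at 53.6 CPM in SOX17KO and 305 CPM in Control, and the list median was -0.005 against 0.09 over all genes. Among T cell gates outside the CD8 and conventional CD4 gates, 2 of 27 immediate early genes were higher and 1 lower in gamma-delta T cells, with a median of 0.21, and 11 of 28 higher and 2 lower in double-negative T cells, with a median of 0.86. The difference between B and T cells was not tested. Of 13 chaperone genes 5 were lower, such as Hspa1a at 49.4 CPM in SOX17KO and 193 CPM in Control. Several of the furthest genes of this gate had most of their UMIs in 1 cell: 1 barcode held 95.3% of the SOX17KO UMIs of Slpi, and the top barcode held 95.9% of the Control UMIs of the neutrophil gene S100a9 and 98.3% of those of S100a8.

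Antibody RNA differed in its class. Over all cells Ighg1, the constant region of IgG1, was at 5677 CPM in SOX17KO and 277 CPM in Control, and the light chain gene Iglc1 at 2794 CPM in SOX17KO and 121 CPM in Control. Ighg2c went the other way, at 0.103 CPM in SOX17KO and 310 CPM in Control, and Ighg2b was at 103 CPM in SOX17KO and 387 CPM in Control. Barcodes of mixed lineage held 107693 of the Ighg1 UMIs in SOX17KO and 10220 in Control. A UMI of Ighg1 was also found in 702 of 2827 SOX17KO CD8 T cells, a class that should lack it, against 22 of 1157 in Control, so its level in T cells is read as background and not as expression. In the CD4, B and cDC1 gates 1 barcode held 91.5%, 88.2% and 59.1% of the Ighg1 UMIs in SOX17KO.

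In macrophages, 79 cells in SOX17KO and 41 in Control, levels were read without a gene-wide comparison. Retnla was at 5973 CPM [5716, 6239] in SOX17KO, from 20 of 79 cells, and had 0 UMIs in Control. Lyz1 was at 1334 CPM [1214, 1462] in SOX17KO and had 0 UMIs in Control. Ifitm3 was at 236 CPM [187, 293] in SOX17KO and 2840 CPM [2630, 3063] in Control. Neutrophil markers summed to 23.6 CPM in SOX17KO and 591 CPM in Control in this gate, and T cell markers to 224 CPM in SOX17KO and 67.5 CPM in Control. Their part in these levels was not tested.

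The series holds 2 further pairs, labelled 1 week and 2 weeks, and the labels do not say from which event these times count. Set beside them, several differences of the untimed pair were absent or of the opposite sign. CD8 T cells were 8.93% of SOX17KO and 21.1% of Control barcodes at 2 weeks, a log2 odds ratio of -1.45, and 19 SOX17KO and 5 Control cells at 1 week. Neutrophils were 14.0% of SOX17KO and 9.23% of Control barcodes at 1 week, and 8.43% of SOX17KO and 4.54% of Control barcodes at 2 weeks. Regulatory T cells were 1.63% of SOX17KO and 2.03% of Control barcodes at 2 weeks. Fibroblasts were higher in SOX17KO at 2 weeks too, with 2.52% against 0.983% of Control barcodes.

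In the CD8 T gate at 2 weeks, 0.955% of 9420 measured genes were at least 2-fold higher in SOX17KO and 1.49% lower. None of 29 type I interferon genes was at least 2-fold higher there and 1 was lower, with a median log2 ratio of 0.11. Of 30 immediate early genes none was higher and 2 were lower, with a median of 0.22, and none of 20 cell cycle genes passed 2-fold, with a median of -0.25. Gzma was at 832 CPM in SOX17KO and 407 CPM in Control at 2 weeks, against 8.19 CPM in SOX17KO and 203 CPM in Control in the untimed pair. Tox was at 288 CPM in SOX17KO and 228 CPM in Control, Ramp3 at 14.9 CPM in SOX17KO and 18.4 CPM in Control, and Galnt18 had 0 UMIs in SOX17KO and 0.247 CPM in Control. Ccl1 and Xcl1 were lower in SOX17KO in both pairs, with log2 ratios of -2.06 and -1.01 at 2 weeks, and so was Tff1, at -1.64. None of these differences between pairs was tested.

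**Figure D5:**
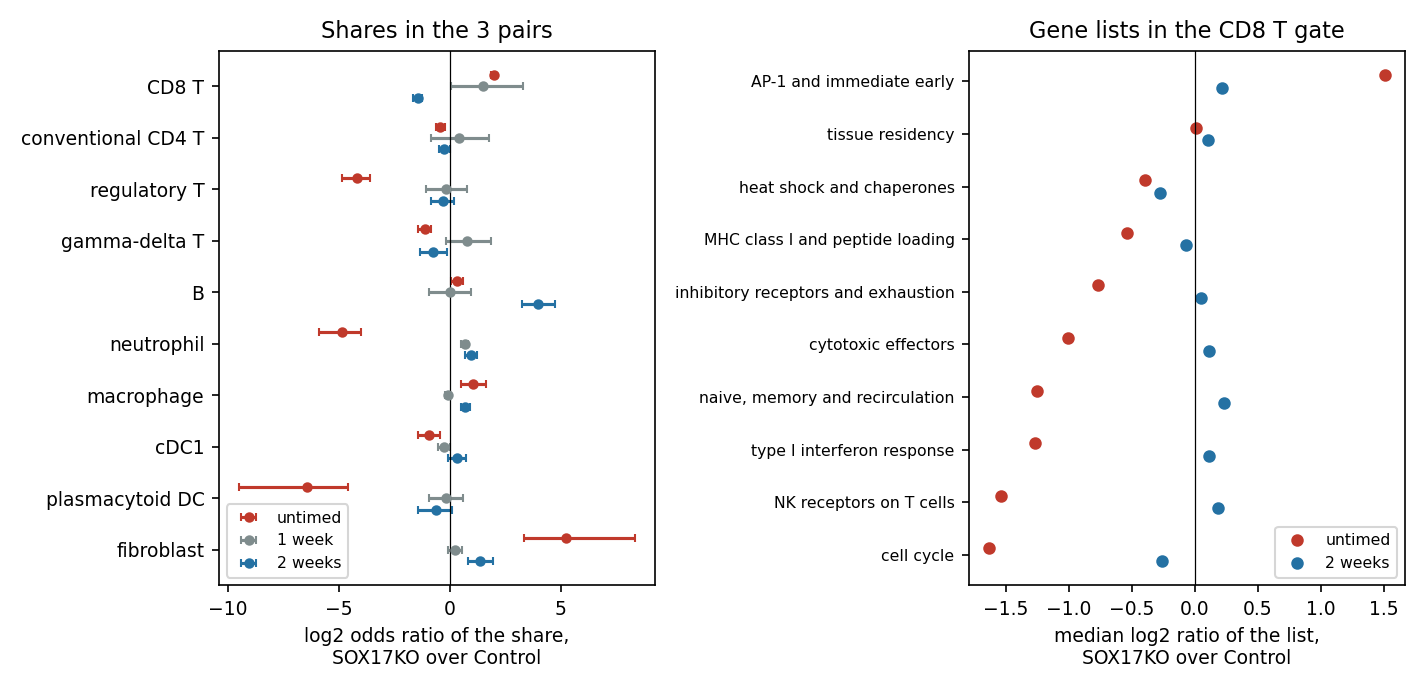
Left, log2 odds ratio of SOX17KO over Control for the share of 10 marker gates in the untimed, 1-week and 2-week pairs, with exact 95% intervals that cover counting error only; right, median log2 ratio of 10 gene lists in the CD8 T gate in the untimed and 2-week pairs. The CD8 T share stands at 1.98 in the untimed pair and -1.45 at 2 weeks, and the list medians spread from -1.63 to 1.51 in the untimed pair but from -0.28 to 0.24 at 2 weeks.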

How the data were processed

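Single cells of sorted tumour-infiltrating leukocytes were measured by 10x Genomics 3' RNA sequencing, with 1 library per genotype in the untimed pair and tumours of 5 mice pooled per condition. The values are raw UMI counts per gene and barcode, as deposited by the authors in filtered matrices of 32285 genes. Cell Ranger 7.0.1 made them, per the file headers, while the submitters' processing notes name version 6.0.1 and the build mm10. The handling of intronic reads and the annotation release are not given in the sources used here.

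From those counts, barcodes with at least 200 genes and at most 10% mitochondrial UMIs were kept, 48 SOX17KO and 72 Control barcodes being removed. Barcodes were placed in 20 marker gates, those with markers of several lineages being set aside as mixed. No doublet caller was run for the main values; removal of the barcodes with the highest simulated-doublet scores was an alternative. UMIs were summed per gate and library and compared as CPM in genes with at least 50 UMIs over both libraries; past 2-fold was the call. A gene at 0 was set at 3 counts per library. Shares carry exact Clopper-Pearson intervals, ratios exact conditional binomial intervals and single levels exact Poisson intervals, all at 95% and for counting error only. No p-value was computed, since 1 library a genotype leaves no residual spread.

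The genes named are the 12 furthest from equal levels a direction in all cells and in CD8 T cells and the 5 furthest in other gates, ranked by the interval bound nearest to equality among genes at 50 CPM or more in the higher library. That ranking left out sex-linked genes, antigen receptor segments, haemoglobins, and genes of the mitochondrion and the ribosome. To these came 2 to 6 of the most abundant members of each of 28 gene lists. The members and the lists were chosen with earlier results of these data known. The count comparison was tested on simulated data with known fold changes. Genome positions are those of GENCODE vM21 on mm10, and promoters are RefSeq's for GRCm38.p6. Alternatives covered scaling, filters, the fold, thinning, doublets, cycling cells and single barcodes. Python 3.11.15 with numpy 2.4.6, scipy 1.17.1, pandas 2.3.3 and matplotlib 3.10.9 was used, and edgeR 4.0.16 in R 4.3.3 only for TMM factors.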

Additional observations from a re-analysis of the deposited data

Results flagged for a closer look

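The genotype difference in 3 gates had the opposite sign in a timed pair, with intervals for counting error that do not meet 0 on either side. The CD8 T share had a log2 odds ratio of SOX17KO over Control of 1.977 [1.86, 2.09] in the untimed pair and -1.446 [-1.66, -1.24] in the 2-week pair. The share of barcodes that met the natural killer rule had -1.978 [-2.42, -1.56] in the untimed pair and 0.6097 [0.27, 0.94] in the 2-week pair. In that gate the SOX17KO barcodes of the untimed pair carried T cell genes. The neutrophil share had -4.866 [-5.88, -4.01] in the untimed pair, 0.6782 [0.51, 0.84] in the 1-week pair and 0.9539 [0.68, 1.23] in the 2-week pair. Each pair has 1 library a genotype, so the differences between pairs were not tested.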

How the results depend on the processing

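Every value here rests on 1 library a genotype, and depth limits the gates: after thinning to 1000 UMIs the log2 odds ratio of the CD8 T share was 0.7027 and that of regulatory T cells -3.152, while those of cDC1 (0.1897) and ungated barcodes (0.2949) turned positive. As a share of gated barcodes only, CD8 T cells had 2.1605. Of 130 share values, 12 moved, 2 reversed and 116 stayed within counting error. Over all cells 3971 genes were higher and 2738 lower with no filter on low counts, 1718 and 2963 at 1.5-fold, and 415 and 462 at 4-fold. In CD8 T cells these were 2549 and 4257, 1140 and 2246, and 112 and 268. Leaving out CD8 T cells with at least 2 UMIs of the 20 cell cycle genes left 382 SOX17KO and 108 Control cells, since most cells carry such UMIs, and fewer genes could be measured. Then 307 genes were higher and 188 lower, with 3 of 10 measured type I interferon genes lower, 2 of 6 NK receptors, 3 cytotoxic genes and 0 of 2 cell cycle genes. The numbers of all genes and of cytotoxic genes measured under this rule are not given here. These list counts therefore cannot be set beside a share of all genes. A stricter rule on 11 cycle genes, chosen after seeing the data, gave 1 of 11 cell cycle genes lower, a count that choosing cells by these genes itself fixes, and left 22 of 31 type I interferon genes lower and 21 of 30 immediate early genes higher. Leaving out each gene's top barcode and thinning the receptor chain genes were also chosen after seeing the data. Of 404 values of the furthest genes in all cells, CD8 T and conventional CD4 T cells over the alternatives, 71 moved and 0 reversed. These genes were picked in the same data for lying furthest from equal levels, so the lack of reversals was largely set by that choice. The furthest genes of the other gates were not put through the alternatives. No paired analysis was possible because each genotype has 1 untimed library and the labels carry no replicate numbers.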

Other observations

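Other gene groups of the CD8 T gate were measured as well, against 4.94% of all its genes at least 2-fold higher and 9.4% at least 2-fold lower. Of 12 chemokine receptor genes measured, 1 was at least 2-fold higher in SOX17KO and 5 lower, with the fractalkine receptor gene Cx3cr1 at 33.8 CPM in SOX17KO and 85.7 CPM in Control and Ccr2 at 117 CPM in SOX17KO and 53.6 CPM in Control. Of 24 glycolysis and hypoxia genes 2 were higher and 3 lower: the hexokinase gene Hk2 was at 60.7 CPM in SOX17KO and 13.5 CPM in Control, and the glycolytic enzyme gene Tpi1 at 37.9 CPM in SOX17KO and 110 CPM in Control. Of 8 MHC class II genes 1, H2-Aa, was higher, at 76.5 CPM in SOX17KO and 37.4 CPM in Control. Its UMIs came from few cells of the gate, 117 of 2827 in SOX17KO (4.14%) and 75 of 1157 in Control (6.48%). Whether RNA of other cell types plays a part in its level was not tested. The shares of the glycolysis and MHC class II groups past 2-fold lay near those of all genes.

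In double-negative T cells, 13 of 17 NK receptor genes were at least 2-fold lower in SOX17KO and none higher, with a median log2 ratio of -1.83. Of all genes measured in that gate, 5.12% were at least 2-fold lower and 3.07% higher. The type 17 receptor gene Il23r was at 152 CPM in SOX17KO and 33.9 CPM in Control there.

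Xist, the X-inactivation RNA, had 2 UMIs in the SOX17KO library and 309 UMIs in the Control library. Of the Control UMIs, 304 were in barcodes that met the epithelial marker count, where 6 of 23 barcodes held them, against 0 of 24 such barcodes in SOX17KO. Y-linked genes were found in B cells of both libraries. Ddx3y was at 248 CPM in SOX17KO and 213 CPM in Control, and Uty at 220 CPM in SOX17KO and 172 CPM in Control. Eif2s3y was at 97.3 CPM in SOX17KO and 101 CPM in Control, and Kdm5d at 47.9 CPM in SOX17KO and 34.9 CPM in Control.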
